A study of Mus musculus with 18 samples.

Results

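The genes described here encode the DNA replication machinery of the mouse, the proteins that license origins, unwind the helix, copy both strands and restore chromatin behind the fork. The members were 50 genes named by symbol, with no threshold on a measured value, though earlier results of these data were known when they were chosen. All 50 were found among the 16545 genes of the expression table, and all 50 entered every comparison. RNA was sequenced from sorted splenic B cells taken directly (0 h) or cultured for 24 h or 48 h with LPS, the bacterial outer membrane component that activates mouse B cells through Toll-like receptor 4. The 18 libraries fell into 6 groups of 3, and the study's methods give 1 mouse per replicate. Control mice were littermates with intact *Zbtb24*, and *Zbtb24* B-CKO mice had both *Zbtb24* alleles floxed at exon 2. As far as the methods state, both genotypes carried 1 allele of a B cell Cre driver on a C57BL/6 background. This Cre acts in the B lineage from its early stages and is not complete in every cell. The ages of these mice, and whether the time points of 1 replicate number came from the same mouse, are not given in the sources used here.

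Before a cell enters S phase, the origin recognition complex, CDC6 and CDT1 load the MCM helicase onto origins, and geminin, the product of *Gmnn*, later binds CDT1 so that no origin is licensed again. The kinase CDC7 together with CDC45, the GINS complex and MCM10 switches the helicase on, DNA polymerase alpha with primase lays the primers, and polymerases epsilon and delta extend them, held to DNA by the PCNA clamp that replication factor C loads. Resting splenic B cells lie outside the cell cycle, LPS drives them into it, and many replication genes are textbook targets of the E2F transcription factors that act at the entry into S phase.

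Levels are given in FPKM, in which the fragments of a gene are divided by its transcript length and by the size of the library. *Zbtb24* itself stood at 49.6, 49.6 and 37.0 FPKM in the control libraries at 0 h and at 14.3, 10.5 and 12.6 FPKM in the B-CKO libraries. It was lower in every B-CKO library than in every control library at each time, with B-CKO to control ratios of 0.275, 0.620 and 0.686 in order of time. The value is per gene, so fragments from exons that were not deleted count towards it. All 5 B cell markers read here were above 1 FPKM in every library, the 7 T cell markers summed to at most 13.2 FPKM at 0 h and 2.26 FPKM in culture, and the 6 myeloid markers to at most 9.90 FPKM. The 4 erythroid markers summed to 7.55 to 26.9 FPKM in control and 6.61 to 46.2 FPKM in B-CKO libraries at 0 h and to at most 3.88 FPKM in culture. The number of fragments per library is unknown from these values. Of the 553 low genes tried, 36 (6.5%) showed whole steps, at a tolerance of 0.006 FPKM. Relative depth was worked out, at 0.877 to 0.924 at 0 h and 1.002 to 1.073 in culture. With so few such genes, it was not used.

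Most replication genes were at lower levels in resting B cells than after 24 h of LPS, although 11 of the 50 had control means of at least 20 FPKM at 0 h. The 50 members summed to 885, 915 and 880 FPKM in the control libraries at 0 h. At 24 h the same sum was 3208, 3305 and 3349 FPKM, and at 48 h it was 3241, 3265 and 3139 FPKM. As a share of all FPKM in the table this was 0.189% to 0.195% at 0 h and 0.582% to 0.650% in culture. The sum was higher in every cultured control library than in every library at 0 h. In RNA from a mixed population, more cells in cycle and more RNA per cell cannot be told apart.

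From 0 h to 24 h, 47 of the 50 members rose in control B cells, 1 fell and 2 did not pass the test (limma on log2(FPKM + 1), Benjamini-Hochberg adjusted p under 0.05 over all genes tested). Of all 15531 genes tested, 26.7% were called higher and 30.7% lower. The members' median log2 fold change was 2.19, against -0.02 over all genes, and 41 members rose at least 2-fold, a size and direction reached by 11.1% of all genes. On the plain FPKM scale the ratio of the 24 h mean to the 0 h mean had a median of 5.31 over the members, from 0.477 for *Cdt1* to 30.4 for *Mcm10*. Fold changes on the log2(FPKM + 1) scale understate those of genes with low levels.

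**Figure D1:**
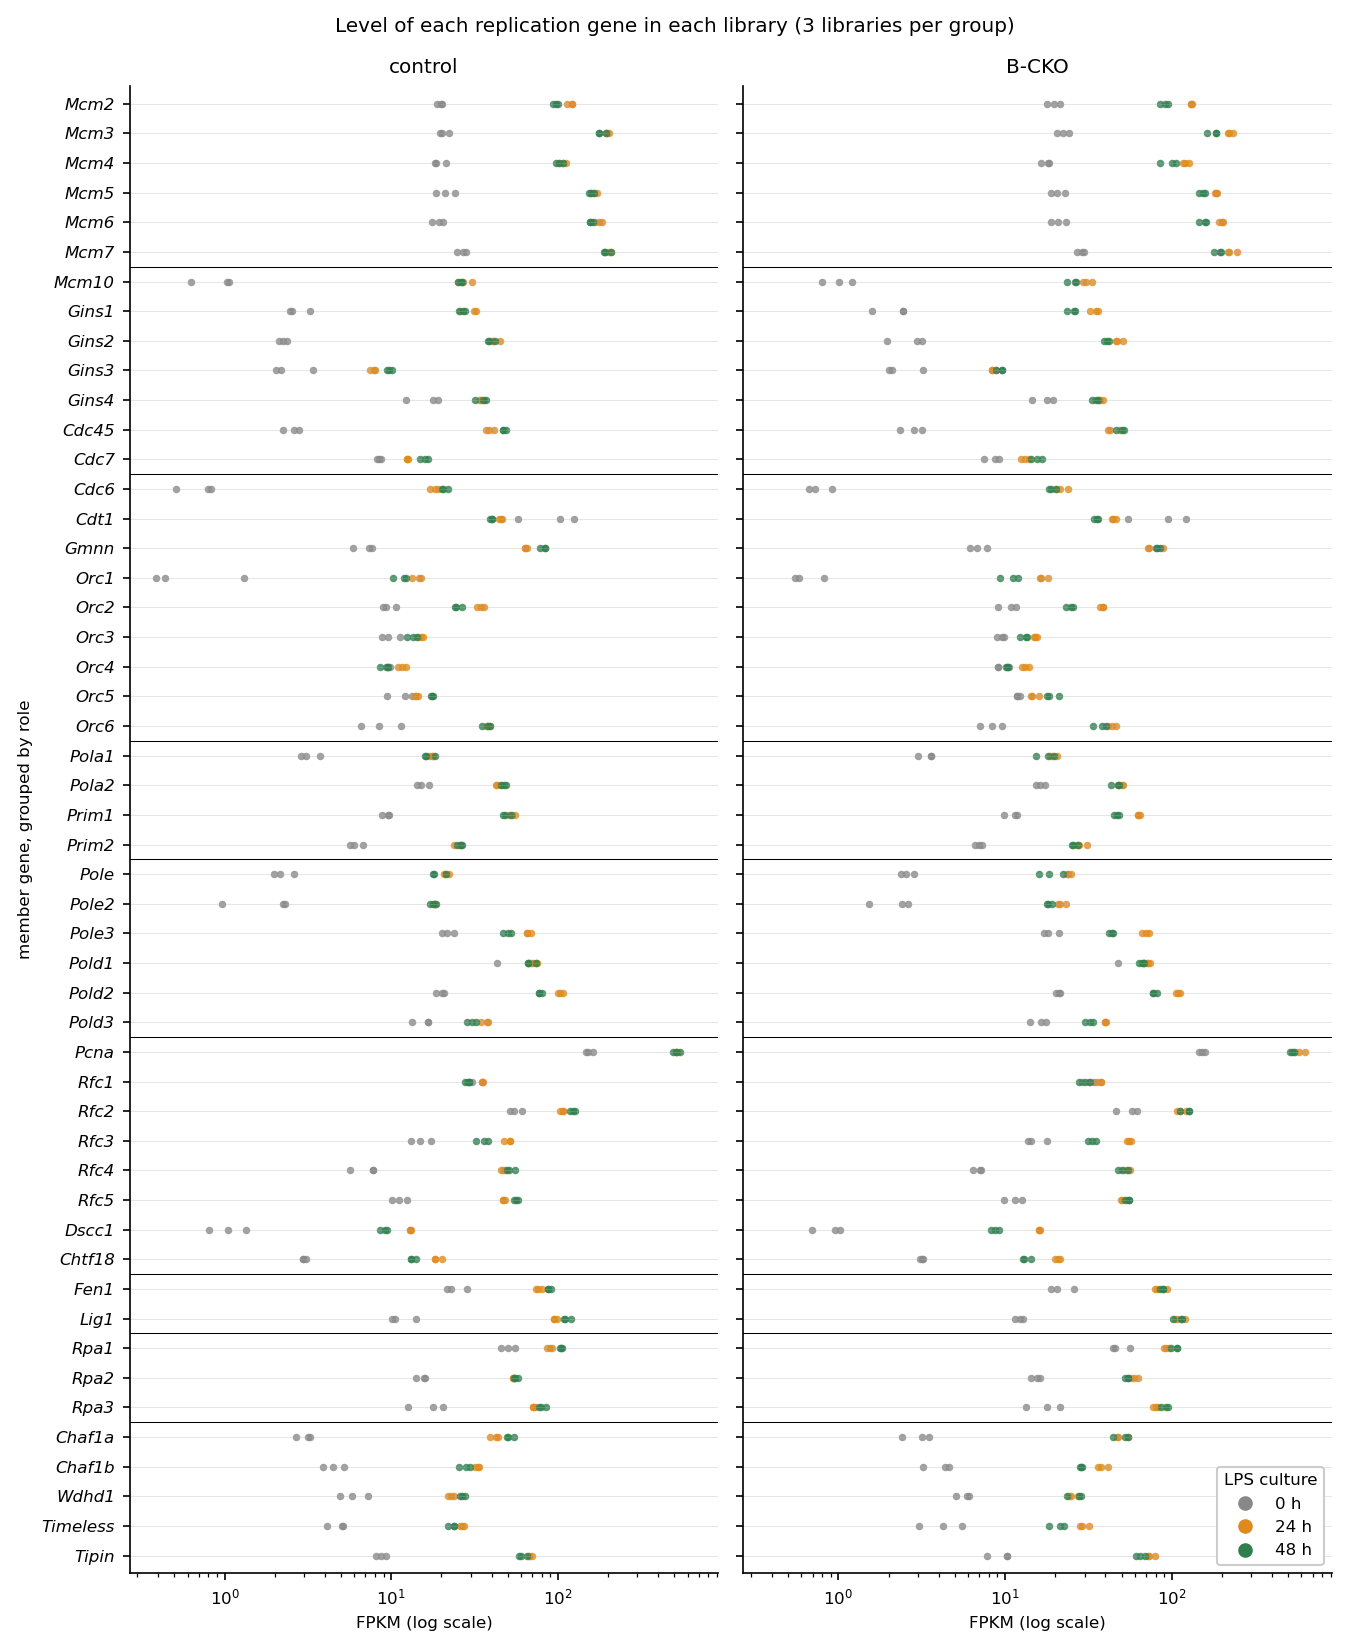
Level of each of the 50 replication genes in each of the 18 libraries, in FPKM on a log axis, with control libraries on the left and B-CKO libraries on the right. Points are single libraries, coloured by time, and horizontal lines separate the roles; *Orc1* and *Cdc6* have the lowest means at 0 h in control cells, *Pcna* lies highest at every time, and *Cdt1* is the member whose 0 h points lie to the right of the others.

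The origin recognition complex, which marks the sites where helicases are loaded, changed unevenly. *Orc1*, its cell-cycle-regulated largest subunit, was at 0.39, 0.44 and 1.30 FPKM in the control libraries at 0 h and at 13.3, 15.2 and 14.6 FPKM at 24 h. *Orc1* and *Cdc6* had the lowest means of the 50 members at 0 h, 0.710 and 0.713 FPKM, although *Orc1* in control replicate 3 lay above *Cdc6*, *Pole2*, *Dscc1* and *Mcm10*. *Orc1* rose by a log2 fold change of 3.21 (SE 0.21, n = 3 per group, limma adjusted p = 4.61e-05). The core subunits moved less. *Orc2* rose from 10.7, 9.25 and 8.94 FPKM to 34.5, 35.8 and 32.8 FPKM, whereas *Orc4* went from 9.55, 9.77 and 9.26 FPKM to 10.9, 12.2 and 11.6 FPKM, a log2 fold change of 0.26 (adjusted p = 0.0275). The *Orc4* call was lost after rescaling to TPM (limma adjusted p = 0.285), with the replicate block (0.0793) and without control 24 h replicate 1, 2 or 3 (0.0501, 0.117 or 0.0968). *Orc5* did not pass the test, with 12.0, 13.3 and 9.45 FPKM at 0 h and 14.1, 14.5 and 13.9 FPKM at 24 h (log2 fold change 0.28, adjusted p = 0.101). FPKM are scaled by transcript length, so subunits can be set side by side. The ratio of *Orc1* to the mean of *Orc2* to *Orc5* was 0.0713 ± 0.0542 in resting control cells (SD, n = 3). The single libraries were at 0.0373, 0.0428 and 0.134, so replicate 3 raised this mean. The ratio was 0.765 ± 0.0451 and 0.705 ± 0.0455 after 24 h and 48 h of LPS. Most of the complex's transcripts were therefore already present at 0 h at levels close to one another, with *Orc1* as the subunit far below them. *Orc6*, the subunit least tightly bound to the rest, went from 6.56, 8.44 and 11.4 FPKM to 37.7, 37.6 and 39.0 FPKM.

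The licensing factors split in direction. *Cdc6*, the ATPase that helps the origin recognition complex load the helicase, was at 0.51, 0.83 and 0.80 FPKM at 0 h and at 17.1, 18.3 and 19.1 FPKM at 24 h, a log2 fold change of 3.49 (SE 0.11, adjusted p = 6.46e-06). *Gmnn* rose from 7.68, 7.34 and 5.93 FPKM to 63.3, 64.9 and 63.6 FPKM, a log2 fold change of 3.03. *Cdt1*, the loading factor that geminin inhibits, was the one member that fell, from 57.9, 102 and 126 FPKM to 44.4, 45.7 and 46.2 FPKM. Its log2 fold change was -0.98 (SE 0.27, adjusted p = 0.0203), and the call was lost when single libraries were left out. Without control 0 h replicate 2 the adjusted p was 0.0756, and without control 24 h replicate 1, 2 or 3 it was 0.0618, 0.0599 or 0.0577. The spread of *Cdt1* at 0 h recurred in the B-CKO libraries, at 55.0, 95.05 and 122 FPKM in replicates 1, 2 and 3, and it then fell to 43.8, 44.6 and 46.3 FPKM (log2 fold change -0.93, adjusted p = 0.0246). Leaving out B-CKO 0 h replicate 2 or 3 gave an adjusted p of 0.0851 or 0.0543, and leaving out B-CKO 24 h replicate 1, 2 or 3 gave 0.0722, 0.0718 or 0.0642.

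The balance of *Cdt1* to *Gmnn* transcripts turned over with LPS. *Cdt1* over *Gmnn* was 7.54, 13.96 and 21.2 in the control libraries at 0 h. It ranged from 0.702 to 0.726 after 24 h of LPS and from 0.470 to 0.517 after 48 h. In B-CKO cells it was 7.09, 14.02 and 19.8 at 0 h, with a range of 0.520 to 0.620 after 24 h and of 0.427 to 0.440 after 48 h. *Cdt1* exceeded *Gmnn* in all 6 libraries at 0 h and *Gmnn* exceeded *Cdt1* in all 12 cultured libraries. At 24 h and at 48 h the B-CKO ratios lay below all control ratios, and this ratio was not tested between genotypes. The gene that differed was not the same at both times. The log2 fold change of B-CKO over control was 0.28 for *Gmnn* and -0.02 for *Cdt1* at 24 h. At 48 h it was 0.01 for *Gmnn* and -0.17 for *Cdt1*, and none of these passed the adjusted threshold.

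The 6 subunits of the MCM2-7 ring, the motor of the replicative helicase, rose together. At 0 h their control means lay between 19.2 FPKM (*Mcm6*) and 26.6 FPKM (*Mcm7*), and at 24 h between 107 FPKM (*Mcm4*) and 201 FPKM (*Mcm7*). *Mcm3* went from 19.7, 20.1 and 22.1 FPKM to 193, 196 and 202 FPKM, the largest of the 6 changes at a log2 fold change of 3.20 (SE 0.060, adjusted p = 4.97e-06), and *Mcm4* had the smallest at 2.41. The ring has 1 copy of each subunit, and the highest subunit mean was 1.38 times the lowest in resting control cells and 1.87 and 2.02 times the lowest after 24 h and 48 h. The subunits were closest in level at rest and drew apart in culture, with *Mcm7* highest at all 3 times.

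Helicase activation genes had the 3 largest changes on the log2(FPKM + 1) scale, whereas as plain ratios of means *Cdc6* (25.5) and *Orc1* (20.2) followed *Mcm10* (30.4), ahead of *Gins2* (18.9) and *Cdc45* (15.2). *Mcm10*, which binds the ring as it is switched on, went from 0.63, 1.03 and 1.07 FPKM to 25.3, 27.1 and 30.6 FPKM in control cells, a log2 fold change of 3.91 (SE 0.13, adjusted p = 6.73e-06) and the largest of the 50. *Gins2*, a GINS subunit, went from 2.23, 2.11 and 2.36 FPKM to 40.5, 40.9 and 45.03 FPKM (log2 fold change 3.74), and *Cdc45*, the helicase cofactor, from 2.62, 2.81 and 2.25 FPKM to 37.0, 38.8 and 41.4 FPKM (log2 fold change 3.49). GINS subunits were far from equal. *Gins4* was already at 19.0, 17.8 and 12.3 FPKM at 0 h and reached 34.3, 36.0 and 33.9 FPKM at 24 h, whereas *Gins3* stayed lowest in culture, at 7.49, 7.91 and 8.02 FPKM. *Cdc7*, the kinase that phosphorylates the ring, rose least in this group, from 8.68, 8.39 and 8.24 FPKM to 12.5, 12.4 and 12.5 FPKM (log2 fold change 0.51, adjusted p = 9.08e-04).

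**Figure D2:**
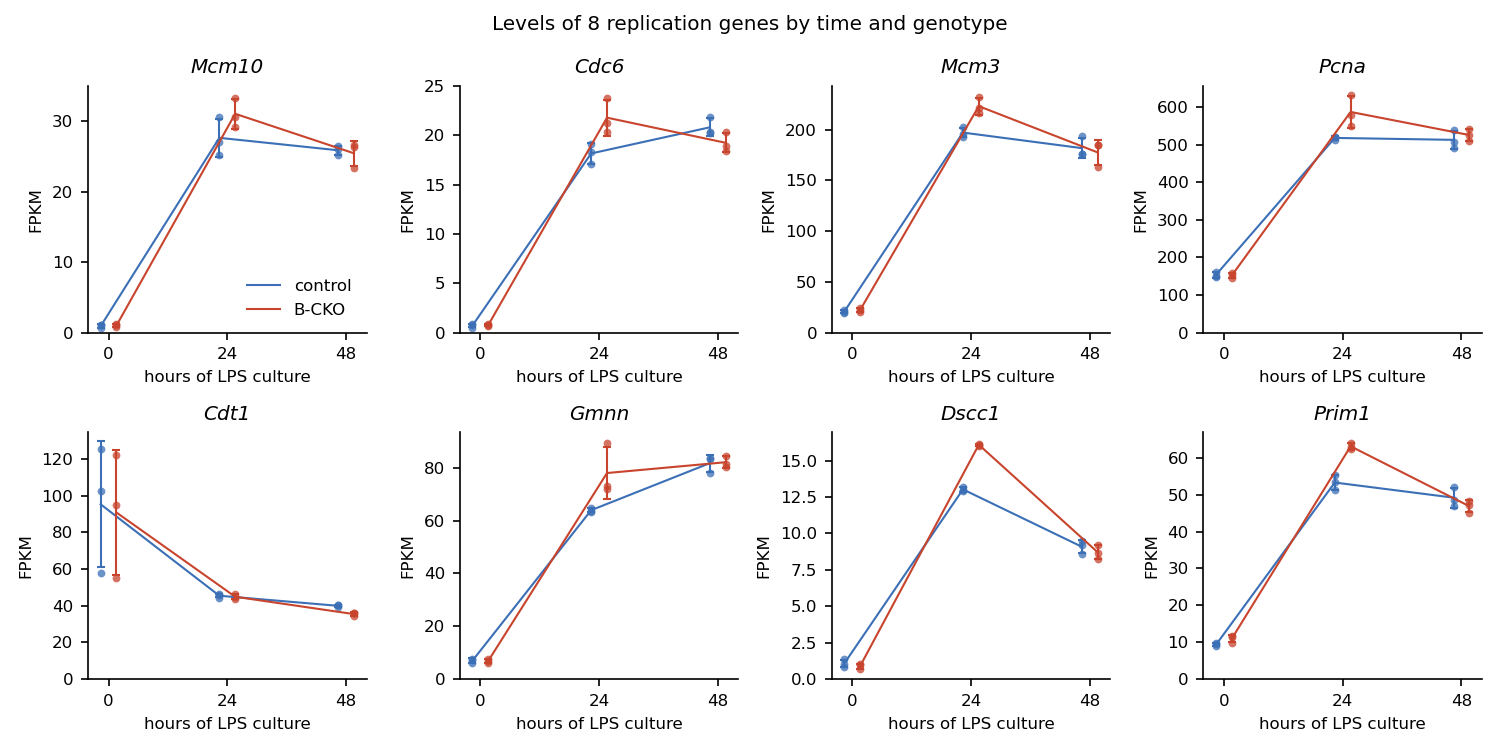
Levels of 8 replication genes in FPKM against hours of LPS culture, in control (blue) and B-CKO (red) cells. Points are single libraries, lines join group means and bars are SD over 3 libraries; *Mcm10*, *Cdc6*, *Mcm3*, *Pcna*, *Gmnn*, *Dscc1* and *Prim1* are higher at 24 h than at 0 h in every library, *Cdt1* is spread between 55.0 and 126 FPKM at 0 h, and the *Dscc1* and *Prim1* points of B-CKO cells lie above those of control cells at 24 h.

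Among the polymerases, the primer-making complex and the leading-strand enzyme rose more than the catalytic subunit of polymerase delta. *Prim1*, the catalytic primase subunit, went from 9.67, 9.53 and 8.85 FPKM to 51.2, 53.4 and 55.3 FPKM in control cells, a log2 fold change of 2.39, and *Pola1*, the catalytic subunit of polymerase alpha, from 3.09, 3.75 and 2.89 FPKM to 16.9, 17.7 and 17.8 FPKM (2.12). *Pole*, the catalytic subunit of polymerase epsilon, went from 2.16, 1.98 and 2.60 FPKM to 20.6, 20.9 and 22.1 FPKM (2.78), and its partner *Pole2* from 2.24, 2.29 and 0.97 FPKM to 18.1, 18.2 and 18.3 FPKM (2.80). *Pold1*, the catalytic subunit of polymerase delta, did not pass the test. It stood at 67.5, 71.3 and 43.0 FPKM at 0 h and at 68.6, 73.5 and 74.7 FPKM at 24 h (log2 fold change 0.28, adjusted p = 0.252), and the groups overlapped because replicate 2 at 0 h lay above the lowest 24 h library. Its partners *Pold2* and *Pold3* rose by 2.33 and 1.20 on the log2 scale, so that of the 3 delta subunits among the 50, *Pold1* had the highest mean at 0 h and *Pold2* the highest mean in culture. The small delta subunit *Pold4*, which is not one of the 50, is given at the end.

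*Pcna*, the sliding clamp, was the highest member in every group. Its transcript was at 162, 148 and 151 FPKM at 0 h and at 521, 521 and 512 FPKM at 24 h in control cells, a log2 fold change of 1.74 (SE 0.054, adjusted p = 6.17e-06). Of the 5 subunits of the canonical clamp loader, *Rfc4* rose most, from 7.78, 7.77 and 5.64 FPKM to 45.5, 47.9 and 47.1 FPKM (2.58), and *Rfc1*, the large subunit specific to the canonical loader, rose least of the 47, from 30.4, 29.5 and 28.5 FPKM to 35.7, 34.8 and 34.8 FPKM (0.24, adjusted p = 0.00728), a call lost after rescaling to TPM (limma adjusted p = 0.220). *Dscc1* and *Chtf18* belong to the alternative loader that acts at forks and in sister chromatid cohesion. *Dscc1* went from 0.81, 1.35 and 1.05 FPKM to 12.9, 12.99 and 13.2 FPKM (2.77) and *Chtf18* from 3.07, 2.95 and 2.97 FPKM to 18.4, 18.2 and 20.3 FPKM (2.32). Among the 5 subunits of the canonical loader, the highest mean was 7.88 times the lowest at 0 h, 3.01 times at 24 h and 4.26 times at 48 h in control cells.

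Lagging-strand, single-strand binding and chromatin factors all rose in control cells. *Lig1*, the ligase that seals Okazaki fragments, went from 10.48, 14.2 and 10.2 FPKM to 94.98, 95.2 and 98.4 FPKM (log2 fold change 2.96), and *Fen1*, the flap nuclease that trims them, from 21.5, 22.9 and 28.3 FPKM to 73.5, 76.2 and 80.1 FPKM (1.63). The 3 subunits of RPA, which coats exposed single strands, rose by 0.82 (*Rpa1*), 1.77 (*Rpa2*) and 2.04 (*Rpa3*). *Chaf1a*, the large subunit of the CAF-1 histone chaperone, went from 2.70, 3.25 and 3.16 FPKM to 39.4, 42.6 and 43.6 FPKM (3.41). *Tipin* and *Timeless*, partners that stabilise the fork, rose by 2.83 and 2.26, and *Wdhd1*, which links the helicase to polymerase alpha, by 1.78.

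The early change had the same direction in B-CKO cells. From 0 h to 24 h, 48 members rose, *Cdt1* fell and *Pold1* did not pass the test, with 27.5% of all genes called higher and 32.3% lower. The members' median log2 fold change was 2.30, with *Mcm10* again at the top, from 1.01, 1.21 and 0.80 FPKM to 29.2, 30.6 and 33.4 FPKM (4.0). *Orc5* passed the test here (log2 fold change 0.31, adjusted p = 0.00915), though not after rescaling to TPM (limma adjusted p = 0.117). The *Rfc1* call in B-CKO cells (adjusted p = 0.0384) was also lost after rescaling to TPM (0.510) and without B-CKO 0 h replicate 2 or 3 (0.0690 or 0.0623) or 24 h replicate 1, 2 or 3 (0.123, 0.0658 or 0.123). Between 0 h and 48 h, 46 members were higher and *Cdt1* lower in each genotype, with 26.5% of all genes called higher and 30.3% lower in control cells, and 27% and 30.7% in B-CKO cells. *Rfc1*, *Orc4* and *Pold1* were the members not called in either genotype at 48 h against 0 h.

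Since the members rose together, their promoters were read for the letters that E2F factors are known to bind. Of the 50 members, 40 had a promoter in the RefSeq-based table (GRCm38.p6, 250 bases before to 50 bases after the start). One of the E2F-type motifs TTTCCCGC, TTTGGCGC or TTTCGCGC, read on both strands, was present in 15 of these 40 (37.5%), against 2.12% of the 27025 genes in the table and 3.74% of the 12354 genes tested from 0 h to 24 h. CCAAT was present in 57.5% of members and in 42.6% of the tested genes, and the CHR-type letters TTTGAA or TTCGAA in 20% and 17%. Members with an E2F-type motif had a median log2 fold change of 2.80 from 0 h to 24 h in control cells and the 25 without one had 1.98, and both sets spanned small and large values. The motif carriers included *Cdt1* and *Pold1*, the member that fell and one that was not called. Stretches upstream of the start are shown for 7 members of the licensing, helicase and polymerase groups, with the motif letters in capitals:
Orc1: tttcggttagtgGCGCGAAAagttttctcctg
Cdc6: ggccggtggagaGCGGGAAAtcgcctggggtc
Mcm5: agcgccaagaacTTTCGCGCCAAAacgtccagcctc
Mcm6: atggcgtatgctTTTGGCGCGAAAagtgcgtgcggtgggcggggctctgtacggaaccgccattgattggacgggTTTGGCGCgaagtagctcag
Mcm7: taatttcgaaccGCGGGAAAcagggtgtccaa
Gins3: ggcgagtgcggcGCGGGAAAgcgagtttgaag
Pola1: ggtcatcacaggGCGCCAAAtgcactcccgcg

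In GRCm38.p6 these lie at chr4:108579415-108579446 (plus strand, *Orc1*), chr11:98908001-98908032 (plus strand, *Cdc6*), chr8:75109344-75109379 (plus strand, *Mcm5*), chr1:128359733-128359827 (minus strand, *Mcm6*), chr5:138172029-138172060 (minus strand, *Mcm7*), chr8:95633506-95633537 (plus strand, *Gins3*) and chrX:93632274-93632305 (minus strand, *Pola1*). Each sequence runs 5' to 3' on the strand of its gene. The start is that of the promoter entry, which need not be the outer end of the gene. The stretches of *Orc1*, *Cdc6*, *Mcm7* and *Pola1* lie inside the span of their gene, which is chr4:108575705-108616030 for *Orc1*. The *Orc1* motif is nearest to the start, within bases 39 to 8 before it, and those of *Cdc6* and *Pola1* lie farther out, within bases 150 to 119 before it. In *Mcm5* and in the first site of *Mcm6*, TTTGGCGC on one strand overlaps TTTCGCGC on the other, so a single stretch of letters counts for both motifs. The capitals are letter matches, not sites shown to be bound in these cells. *Orc3* and *Rfc3* also have a motif upstream of the start and are not shown. Their log2 fold changes from 0 h to 24 h in control cells were 0.56 and 1.67. A member without a match lacks these letters in this window only.

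After 24 h the members no longer moved as a block. In control cells 15 members rose and 15 fell between 24 h and 48 h, with 20.1% of all genes called higher and 24.8% lower, and no member changed by 2-fold. *Dscc1* went from 12.9, 12.99 and 13.2 FPKM to 9.22, 9.45 and 8.59 FPKM (log2 fold change -0.48, SE 0.048, adjusted p = 3.59e-04), *Rfc3* from 47.7, 51.2 and 51.5 FPKM to 37.9, 36.2 and 32.5 FPKM (-0.49), and *Orc2* from 34.5, 35.8 and 32.8 FPKM to 26.4, 24.6 and 24 FPKM (-0.44). Each of these 48 h libraries lay below each 24 h library. On the rising side, *Gmnn* reached 78.0, 83.8 and 83.4 FPKM (0.35, adjusted p = 3.61e-04), *Cdc7* reached 14.9, 16.6 and 16.0 FPKM (0.32) and *Chaf1a* 49.8, 54.3 and 49.96 FPKM (0.29). *Lig1* and *Fen1*, the Okazaki fragment enzymes, both rose (0.23 and 0.21), and none of the 6 MCM2-7 genes did. In a single fit of all 18 libraries the members called higher were 6, *Rfc5*, *Orc5*, *Cdc7*, *Gmnn*, *Cdc45* and *Chaf1a*, and *Lig1* and *Fen1* were not called (limma adjusted p = 0.0848 and 0.157).

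In B-CKO cells the balance at this step was toward lower levels. Between 24 h and 48 h, 4 members rose and 30 fell, with 21.7% of all genes called higher and 24% lower. B-CKO 24 h replicate 3 was the highest of its group for 39 members, and B-CKO 48 h replicate 3 the lowest of its group for 39. The 5 B cell markers summed to 1883 to 1943 FPKM at 24 h and 2197 to 2467 FPKM at 48 h in B-CKO libraries. In control libraries they summed to 2016 to 2174 and 2098 to 2266 FPKM, and their part was not tested. The members' median log2 fold change was -0.23. It was -0.20 without B-CKO 24 h replicate 3, -0.18 without 48 h replicate 3 and -0.26 without 24 h replicate 1. In control cells it was -0.06, which became -0.03 without control 24 h replicate 3, -0.10 without control 24 h replicate 1 and -0.11 after rescaling to TPM. *Dscc1* fell from 16.0, 16.1 and 16.1 FPKM to 9.23, 8.65 and 8.26 FPKM (-0.82, SE 0.052, adjusted p = 4.20e-05), and *Rfc3* from 53.7, 55.2 and 56.6 FPKM to 33.3, 34.9 and 31.6 FPKM (-0.71). All 6 MCM2-7 genes fell, by 0.26 (*Mcm7*) to 0.54 (*Mcm2*) on the log2 scale, and the 6 subunits of polymerases epsilon and delta among the 50 were called lower too. With the replicate number as a block, which treats same-numbered libraries as pairs, 24 of the 30 were called lower. *Mcm7* (limma adjusted p = 0.0536), *Mcm10* (0.0528), *Tipin* (0.0510), *Orc6* (0.0750), *Pole* (0.0636) and *Pold1* (0.0664) were not. The *Pold1* call was also lost under robust eBayes (0.0514), in the single fit of all libraries (0.596, where *Pole2* was at 0.296) and when any library but B-CKO 48 h replicate 2 was left out (0.0707 to 0.128). The *Pole* call was lost on leaving out the same 5 libraries (0.0664 to 0.111), and that of *Mcm4* without B-CKO 24 h replicate 3 (0.0544). The *Tipin* call was also lost in the single fit (0.0980) and when any library but B-CKO 48 h replicate 1 was left out (0.0563 to 0.107). That of *Orc6* was lost in the single fit (0.245) and without B-CKO 24 h or 48 h replicate 2 or 3 (0.0686 to 0.138). The 4 that rose were *Cdc7*, *Orc5*, *Rpa1* and *Rpa3*, which also rose in control cells. That count of 4 was unsteady. It was 1 without B-CKO 24 h replicate 1, 2 without B-CKO 24 h replicate 2, 48 h replicate 1 or 48 h replicate 2, 7 without B-CKO 24 h replicate 3, and 2 with the replicate number as a block.

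The calls at this step sort the members into 5 sets, and a call in one genotype without a call in the other does not show that the genotypes differ. No share of all genes is given for these sets, so their sizes are not read as a result about the members. Of all genes, 20.1% rose and 24.8% fell in control cells, and 21.7% rose and 24% fell in B-CKO cells. A set of 15, *Mcm2*, *Mcm6*, *Cdt1*, *Orc1*, *Orc2*, *Orc4*, *Pole3*, *Pold2*, *Pold3*, *Rfc1*, *Rfc3*, *Dscc1*, *Chtf18*, *Chaf1b* and *Timeless*, fell in both genotypes. A further 15 fell in B-CKO cells and were not called in control cells, among them *Mcm3*, *Mcm4*, *Mcm5*, *Mcm7*, *Mcm10*, *Gins1*, *Gins2* and *Prim1*. Another 11 rose in control cells and were not called in B-CKO cells, among them *Cdc6*, *Cdc45*, *Gmnn*, *Lig1*, *Fen1* and *Chaf1a*. The other 5 were called in neither, and *Pcna* was one of them, at 539.8, 508 and 491 FPKM in control and 542, 510.2 and 525 FPKM in B-CKO cells at 48 h. By group mean, 30 members were highest at 24 h and 19 at 48 h in control cells, and 37 and 12 in B-CKO cells, with *Cdt1* highest at 0 h in both. Some of these means hardly differ, as for *Gins4*, with a ratio of 48 h to 24 h of 1.001 in control cells. No share of all genes is given for these counts, and they are not read as a difference between the genotypes.

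**Figure D3:**
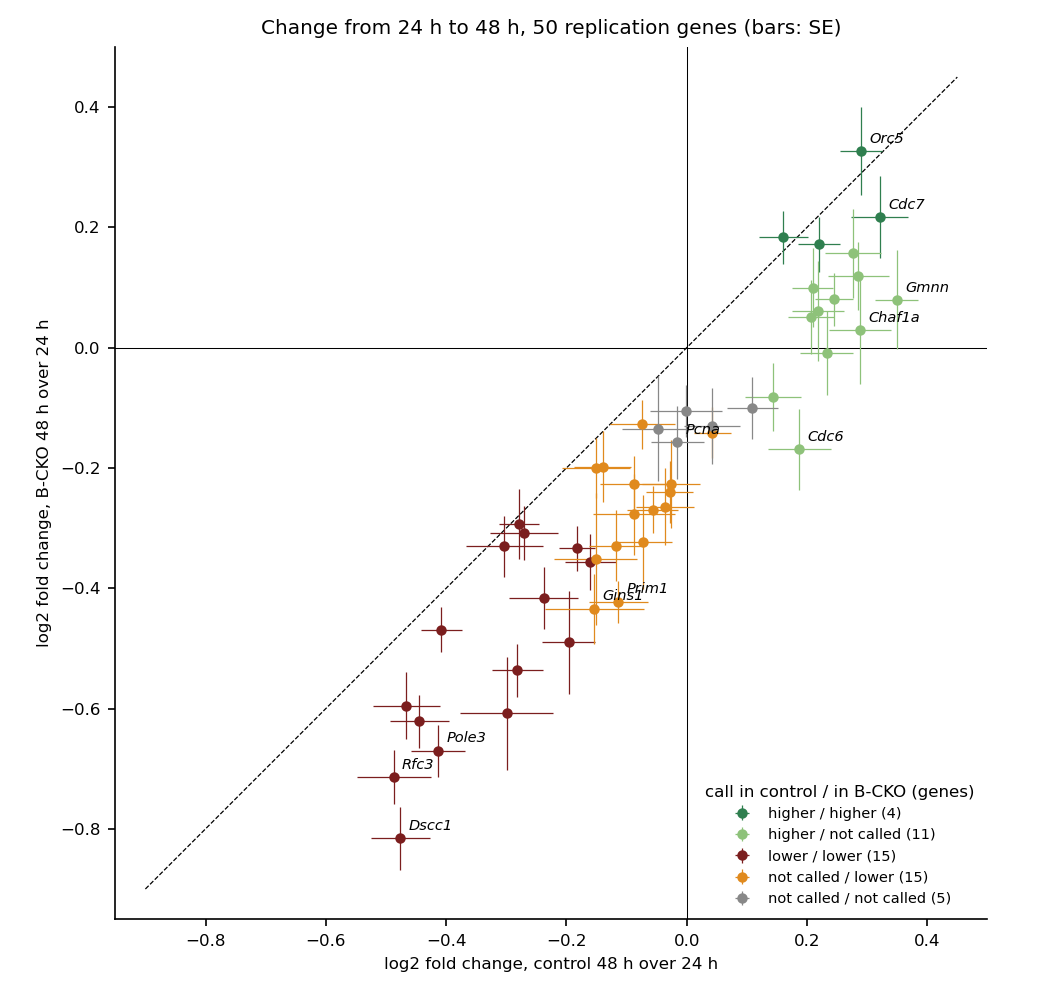
Log2 fold change from 24 h to 48 h of the 50 replication genes in control cells (horizontal) and B-CKO cells (vertical), with bars of 1 SE and colours by the call in each genotype. The dashed line marks equal change, and 48 of the 50 points lie below it, with *Dscc1* at -0.48 in control and -0.82 in B-CKO cells.

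The difference between the genotypes in this later change was tested directly, as an interaction. No member passed (adjusted p of 0.399 and above), as did no gene of the 15844 tested. At an unadjusted p under 0.05, 26 members changed more negatively in B-CKO cells and none more positively, against 3.38% of all genes in that direction. That count was 10 in the single fit of all 18 libraries and 19 with the replicate number as a block. The fitted value was below 0 for 48 of the 50 members, with a median of -0.18, while 50.3% of all genes lay below 0. The members with the smallest p were *Dscc1* (-0.34, SE 0.065), *Prim1* (-0.31, SE 0.061), *Mcm2* (-0.26), *Pole3* (-0.26), *Cdc6* (-0.36), *Mcm5* (-0.21), *Rpa2* (-0.18) and *Cdt1* (-0.15). These are a mix of loader, primase, helicase, polymerase, single-strand binding and licensing genes. Over leaving out each of the 12 libraries in turn, the members' median stayed between -0.20 and -0.14, and 19 to 29 members had an unadjusted p under 0.05.

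Between the genotypes at rest, no difference in replication genes was detectable. At 0 h no member passed the test, none had an unadjusted p under 0.05, and 2% of all genes did. With the replicate block, which pairs these libraries, 1 member was higher and 1 lower at an unadjusted p under 0.05. The median log2 fold change of B-CKO over control was 0.01, with 28 members above 0 and 22 below, and without B-CKO 0 h replicate 1 it was -0.01, with 23 above and 27 below. Replicates at 0 h were more variable than in culture, with a median SD over the members of 0.141 (control) and 0.140 (B-CKO) on the log2 scale against 0.049 to 0.072 at 24 h and 48 h. The interval of the difference was correspondingly wide, for example -0.05 to 0.48 for *Prim1* (9.67, 9.53 and 8.85 FPKM in control and 11.5, 11.8 and 9.83 FPKM in B-CKO libraries).

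At 24 h the members sat slightly higher in B-CKO cells, gene after gene. The fitted difference was above 0 for 48 of the 50 members, the exceptions being *Cdt1* and *Pold1*, and for all 50 when libraries were scaled by median ratios, while 52.4% of all genes lay below 0. All 3 B-CKO libraries lay above all 3 control libraries for 38 members and below them for none, against 8.43% and 11.7% of all genes. The median difference was 0.16 on the log2 scale, and on the plain FPKM scale the B-CKO mean was a median 11.7% above the control mean, from 1.20% below (*Cdt1*) to 23.5% above (*Dscc1*). The sum over the members was 3560, 3600 and 3845 FPKM in B-CKO libraries, above the 3208 to 3349 FPKM of control libraries. Members share their libraries, so they are not separate observations of the genotype, and the comparison rests on 3 mice against 3.

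*Dscc1* alone passed the adjusted threshold. Its 24 h libraries were at 12.9, 12.99 and 13.2 FPKM in control and 16.0, 16.1 and 16.1 FPKM in B-CKO cells, a log2 fold change of 0.29 (SE 0.030, limma adjusted p = 0.0421), and 0.0132% of all genes were called higher. The gene lies at chr15:55076101-55090491 (GRCm38.p6). This call was lost when any single library of the comparison was left out, and its adjusted p ranged from 0.00699 to 0.699 over the alternatives. At an unadjusted p under 0.05, 37 members were higher and none lower, against 6.79% and 9.51% of all genes, and in the single fit of all 18 libraries 16 were higher and none lower. The next smallest p was that of *Prim1*, at 51.2, 53.4 and 55.3 FPKM in control and 62.9, 62.3 and 64.1 FPKM in B-CKO cells (0.24, SE 0.032, adjusted p = 0.0586), followed by *Pole2* (0.25, adjusted p = 0.0840). The fitted B-CKO over control values at 0 h, none of them called, were already 0.21 for *Prim1* and 0.19 for *Pole2*, and -0.13 for *Dscc1*. The genotype difference in the change from 0 h to 24 h was 0.03 for *Prim1* and 0.06 for *Pole2*.

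*Rpa3* (0.16), *Rfc4* (0.20), *Mcm3* (0.18), *Pole* (0.18) and *Mcm5* (0.16) completed the 8 members with the smallest p at 24 h. *Mcm3* was at 193, 196 and 202 FPKM in control and at 221, 216 and 233 FPKM in B-CKO cells, with no overlap. Every role had a median above 0, from 0.09 for polymerases epsilon and delta to 0.18 for polymerase alpha-primase. With genes below a mean of 1 FPKM left out before the fit, 12 members passed against 0.947% of all genes: *Mcm3*, *Mcm5*, *Mcm6*, *Orc6*, *Prim1*, *Pola2*, *Pole*, *Pole2*, *Rfc4*, *Dscc1*, *Rpa3* and *Chaf1b*. None did when the replicate number was a block and no such filter was used.

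Values that moved with genotype at 24 h stand beside this result. B-CKO 24 h replicate 3 was the highest of its group for 39 of the 50 members, and without it the members' median difference was 0.13 with 30 members at an unadjusted p under 0.05. Control 24 h replicate 1 was the lowest of its group for 33 members, and without it the median was also 0.13, with 29 such members. The 5 B cell markers summed to 2016 to 2174 FPKM in control and 1883 to 1943 FPKM in B-CKO libraries at 24 h. Their part in the result was not tested.

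**Figure D4:**
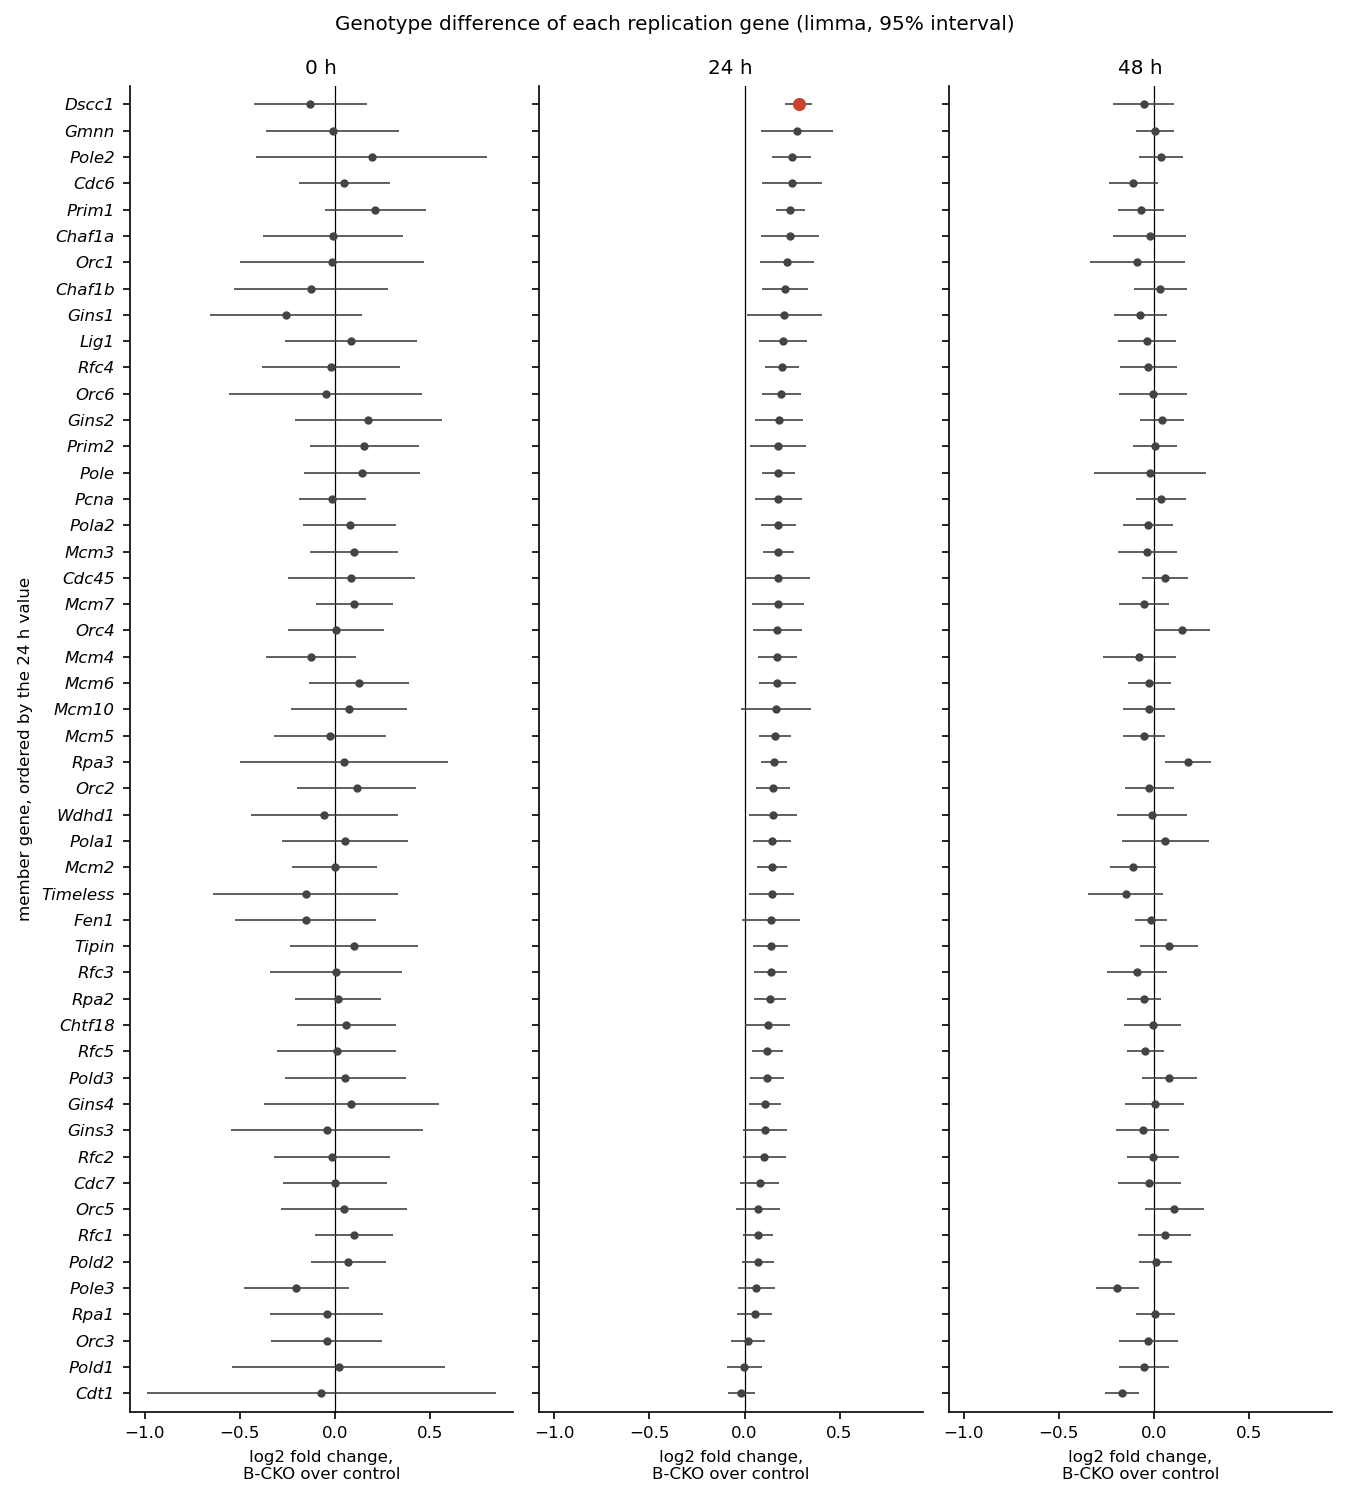
Log2 fold change of B-CKO over control for each of the 50 replication genes at 0 h, 24 h and 48 h, with 95% intervals from limma; genes are ordered by the 24 h value and the red point marks the one call. At 24 h 48 of 50 points lie right of 0 around a median of 0.16, and at 0 h and 48 h the points scatter to both sides around 0.01 and -0.02.

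By 48 h the shift was no longer seen. No member passed the test, with 0.046% of all genes called in either direction, and the members' median was -0.02, with 17 above 0 and 33 below, where 54% of all genes lay below 0. B-CKO 48 h replicate 3 was the lowest of its group for 39 members, and without it the median was 0.02 with 32 members above 0. At an unadjusted p under 0.05, *Rpa3* was higher (84.7, 78.8 and 77.2 FPKM in control and 92.3, 86.3 and 94.3 FPKM in B-CKO libraries, a log2 fold change of 0.18), and *Cdt1* and *Pole3* were lower (-0.17 and -0.19), against 3.57% and 4.14% of all genes. *Cdt1* was at 40.3, 40.3 and 39.2 FPKM in control and at 36.1, 35.8 and 34.3 FPKM in B-CKO cells, and *Pole3*, a histone-fold subunit of polymerase epsilon, at 52.0, 47.1 and 50.1 FPKM and at 43.7, 44.4 and 42.0 FPKM. *Rpa3* was the member higher at an unadjusted p under 0.05 at both 24 h and 48 h, and none of these 48 h differences passed the adjustment (adjusted p of 0.296 and above).

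The difference between the genotypes in the first 24 h was also tested as an interaction. No member passed, and 5 had an unadjusted p under 0.05, all with a larger change in B-CKO cells: *Mcm4* (0.30), *Dscc1* (0.41), *Gins1* (0.47), *Pcna* (0.19) and *Pole3* (0.27), against 1.38% of all genes in that direction. That count of 5 was 2 without control 24 h replicate 1 or B-CKO 24 h replicate 3, 3 without control 24 h replicate 3, B-CKO 24 h replicate 1 or B-CKO 0 h replicate 2, and 8 without B-CKO 0 h replicate 1. It was 3 with a pseudocount of 0.1 and 3 with a minimum mean of 1 FPKM. *Gins1*, a GINS subunit, was at 3.26, 2.46 and 2.55 FPKM in control and 2.43, 1.59 and 2.45 FPKM in B-CKO cells at 0 h, and at 26.0, 31.4 and 32.2 FPKM and 35.0, 32.5 and 36.2 FPKM at 24 h. The 24 h libraries enter both interactions and the 24 h comparison, so these results share samples and are not independent of one another.

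A list of 30 further replication genes outside the 50, such as checkpoint mediators, topoisomerases and histone chaperones, was read beside them. In control cells 26 of the 30 rose from 0 h to 24 h, 1 fell and 3 were not called, against 26.7% and 30.7% of all genes, with a median log2 fold change of 1.15. *Top2a*, the topoisomerase that untangles sister chromatids, rose most, from 4.04, 7.04 and 7.39 FPKM to 90.1, 86.5 and 99.6 FPKM (3.73), ahead of the checkpoint mediator *Clspn* (3.33), the histone chaperone *Asf1b* (2.91) and the ribonuclease subunit *Rnaseh2b* (2.34). *Pold4*, the small accessory subunit of polymerase delta, fell from 172, 170.0 and 149 FPKM to 106, 95.9 and 101 FPKM (-0.69, adjusted p = 3.97e-04). *Pold4* then rose again by 48 h, to 150.3, 143 and 148 FPKM (0.54, adjusted p = 1.50e-04). Between the genotypes at 24 h none of the 30 passed, 28 had values above 0 with a median of 0.08, and 11 were higher and 1, *Pold4* (-0.20), lower at an unadjusted p under 0.05, against 6.79% and 9.51% of all genes. From 24 h to 48 h in B-CKO cells 6 of the 30 rose and 13 fell, against 21.7% and 24% of all genes. *Pold4* was one of the 6, going from 86.5, 90.7 and 86.8 FPKM to 153, 138 and 169 FPKM (0.79, adjusted p = 1.69e-04). In control cells 9 of the 30 rose and 10 fell, against 20.1% and 24.8% of all genes.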

How the data were processed

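RNA-seq of splenic B cells was analysed from a gene-level FPKM table that the authors deposited for 18 libraries. Per the study's methods and the submitters' processing notes, the authors aligned reads to mm10 with Bowtie2 and quantified genes with RSEM (tool versions not given in the sources used here), and divided by transcript length and mapped reads, so counts cannot be read from FPKM. Whole steps between low values, which would give relative depth, were found in 6.5% of 553 genes tried, at a tolerance of 0.006 FPKM. The relative depth was not used. The notes also list the aligner BWA, the methods also name Cufflinks for transcript abundance, and what each contributed to the table is not given in the sources used here. The methods and labels name different sequencers. Of the 16545 gene IDs, 16512 matched a symbol in the RefSeq table (GRCm38.p6).

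Genes above 0 FPKM in any library of a comparison were fitted as log2(FPKM + 1) with limma 3.58.1 in R 4.3.3 (lmFit, eBayes with trend, two-sided), 2 groups at a time, and p-values were adjusted over all genes tested. Interactions used 4 groups. The fitting code was tested on simulated data. All members could be named. By rule, fold changes with p were those of called members in time comparisons and of the 8 smallest p in genotype comparisons. *Orc5*, *Pold1* (both not called) and the non-member *Pold4* (by its fall) are given as well, *Orc5* and *Pold1* chosen after their values were seen. Members and lists were chosen with earlier results of these data known.

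Replicate numbers appear in every group. At 0 h same-numbered control and B-CKO libraries deviated together (r = 0.854, 0.468 and 0.789 over 10000 genes) and were read as pairs. From 24 h to 48 h in B-CKO cells r was 0.126, 0.183 and 0.117, and these numbers were also read as pairs. Between genotypes at 24 h (0.103, 0.200 and 0.0910) and 48 h (-0.0372, 0.216 and 0.230) they were not. The B-CKO values were close to those between genotypes at 24 h. They therefore do not settle which libraries are pairs, and counts with and without the block are given. No libraries were identical. Alternatives were another pseudocount, a minimum of 1 FPKM, TPM or median-ratio scaling, a replicate block, a single fit of 18 libraries, robust eBayes, and leaving out each library. 1 gene of the marker list is not reported here.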

Additional observations from a re-analysis of the deposited data

How the results depend on the processing

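For the 295 single-gene results followed (called members in time comparisons, the 8 smallest p between genotypes), none of the 3971 values under the alternatives changed direction. These results were picked by call or small p in the same data, so a change of direction was unlikely from the outset. The members' median for B-CKO over control did change direction. At 48 h it went from -0.02 (17 members above 0, 33 below) to 0.02 (32 above, 18 below) without B-CKO 48 h replicate 3. At 0 h it went from 0.01 (28 above, 22 below) to -0.01 (23 above, 27 below) without B-CKO 0 h replicate 1, and was -0.00068 after rescaling to TPM and -0.0020 without control 0 h replicate 3 (25 above and 25 below in each). Of the single-gene values, 3828 kept their side of the threshold, 128 lost the call and 15 gained it. For B-CKO over control at 24 h, the number of members called higher was 1 as reported, 2 with a pseudocount of 0.1, 12 with a minimum mean of 1 FPKM, 0 after rescaling to TPM, 0 with the replicate block, 0 in a single fit of all libraries, and 0 to 0 when each library was left out. With the replicate block and the 1 FPKM minimum together, chosen after seeing the data, it was 25, with 2.14% of all genes called higher. The minimum leaves 9711 of 15104 genes in the test. From 24 h to 48 h in B-CKO cells the 4 members called higher became 2 after rescaling to TPM, 2 with the replicate block, 2 in the single fit, and 1 to 7 when each library was left out. In control cells the 15 called higher at this step became 6 in the single fit. From 0 h to 48 h the 1 member called lower became 2 in each genotype after rescaling to TPM. The call of *Cdt1* as lower from 0 h to 24 h gave counts of 0 to 1 in control and 0 to 1 in B-CKO cells when each library was left out. At 0 h, where the numbers pair the libraries, the replicate block gave 0 members called, as without it, and beyond the counts given above for 24 h and for the later step in B-CKO cells it changed no count of members called by over 1.5 times. At an unadjusted p under 0.05 it gave 1 member higher and 1 lower at 0 h (none without it) and 3 higher and 3 lower at 48 h (1 and 2 without it). The single fit gave 16 members higher at 24 h where 37 were reported, and 10 more negative in the later change where 26 were. No scaling moved the median of all genes by over 0.1 on the log2 scale. Rescaling to TPM moved some single members by more. From 0 h to 24 h in control cells, *Rfc1* went from 0.24 to 0.08, *Orc4* from 0.26 to 0.11 and *Cdt1* from -0.98 to -1.15. In B-CKO cells *Orc5* went from 0.31 to 0.16 and *Rfc1* from 0.22 to 0.06. The number of sequenced fragments is unknown, and genes near 0 FPKM are the least certain.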
